A study of Mus musculus with 6 samples.

Results

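Circular RNA (circRNA) arises by back splicing, in which a splice donor is joined to an acceptor that lies before it in the gene, and the resulting ring has no free ends for exonucleases to attack. A gene can give many rings, since each pair of splice sites can in principle be joined, and the gene from which a ring is cut is called its host. The 5 hosts described here are Usp3, Aff3, Cdyl, Hipk3 and Ankib1, the hosts of the 5 circRNA with the most back-splice reads in mural granulosa cells, which form the inner lining of the follicle and respond to LH. They were selected on those reads, so that the level of each main circRNA and its lead over the other circRNA of its gene are given as a description with no test. All circRNA naming a host were taken, 68 of 42381, of which 21 were of Usp3, 17 of Aff3, 5 of Cdyl, 10 of Hipk3 and 15 of Ankib1. Each is called an isoform and numbered within its host by the back-splice reads summed over the 6 libraries, so that isoform 1 is the main isoform.

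RNA came from wild-type immature CF-1 mice, 1 library per mouse. Every mouse was injected with 5 IU of eCG (PMSG), which drives follicle growth, at 21 days of age. The 0-h group (n = 3) was sampled 46 h after eCG with no further hormone, and the 4-h post-hCG group (n = 3) was given 5 IU of hCG, which acts on the LH receptor, at 46 h after eCG as labelled, and was sampled 4 h later. The groups therefore differ in time after eCG as well as in hCG, and the 2 cannot be told apart. Each library held 65994 to 91854 back-splice reads at circRNA, and of the reads on junctions naming a gene, 119094 to 163145 per library, 1 read was worth 6.13 to 8.40 CPM (reads scaled to a library of 1000000). For each junction the files also hold a count of linear RNA. The cells were checked on the linear count at the junction of most linear counts in each marker gene: Inhba, the inhibin and activin beta A subunit, stood at 561 ± 248 and 826 ± 34.7 normalized CPM at 0-h and 4-h post-hCG (SD, n = 3 each), and Nr5a2, a nuclear receptor needed for ovulation, at 332 ± 9.77 and 249 ± 30.0. Of the granulosa list, 7 of 10 genes could be tested, with a median log2 change of -0.97, and 1 (Inhba) was called higher and 4 lower at 4-h post-hCG by the thresholds given below. The 4 were Hsd17b1 and Cyp19a1, enzymes of estradiol synthesis, Fshr, the FSH receptor, and Esr2, an estrogen receptor. Over all genes compared in this way, 1793 of 6949 were called (25.8%), 903 higher and 890 lower. Hsd17b1 stood at 307 ± 12.99 and 108 ± 31.9 normalized CPM, Cyp19a1 at 111 ± 6.67 and 54.8 ± 6.18, Fshr at 45.2 ± 4.62 and 16.8 ± 4.09 and Esr2 at 110 ± 14.3 and 43.7 ± 14.4. The theca marker Ptch1 stood at 25.03 and 17.6, the immune marker Csf1r at 1.91 and 2.08 and the endothelial marker Pecam1 at 1.55 and 1.82 normalized CPM, and no other gene of those 3 lists and none of the 4 oocyte genes could be tested. A gene without a circRNA has no linear count here, and of the oocyte genes 1 had a circRNA and did not enter the fit. Fewer cells of a type and less RNA per cell cannot be told apart in such bulk samples.

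The host proteins do unlike things. Usp3 is a ubiquitin-specific protease that takes ubiquitin from histones, Aff3 is a nuclear protein of the AF4 family of transcription elongation factors, and Cdyl is a chromodomain protein that binds repressive histone marks and recruits corepressors. Hipk3 is a nuclear serine/threonine kinase, and its exon 2 ring is among the best known of mammalian circRNA. Ankib1 is an ankyrin-repeat protein of the RBR class of E3 ubiquitin ligases. Each main isoform is defined by 1 back-splice junction, shown here because a read that spans these letters is what was counted. The sequences are from the GRCm38.p6 genome of RefSeq, 5′ to 3′ on the strand of the gene, with the last 20 bases of the exon that gives the splice donor in lower case and the first 20 bases of the exon that gives the acceptor in capitals.
Usp3 isoform 1: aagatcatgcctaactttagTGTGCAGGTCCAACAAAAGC
Aff3 isoform 1: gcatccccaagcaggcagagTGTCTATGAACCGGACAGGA
Cdyl isoform 1: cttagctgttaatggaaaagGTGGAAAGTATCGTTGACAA
Hipk3 isoform 1: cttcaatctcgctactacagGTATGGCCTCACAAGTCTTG
Ankib1 isoform 1: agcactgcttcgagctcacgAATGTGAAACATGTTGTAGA

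The main Usp3 isoform lies at chr9:66540062-66566903 on the minus strand and joins exons 2 to 8 of 15 of the transcript that fits it best in GENCODE release M21, all of them coding. That of Aff3 lies at chr1:38534906-38536946 on the minus strand and joins coding exons 3 to 5 of 23. The main isoform of Cdyl is the single coding exon 5 of 10 at chr13:35815909-35816575 on the plus strand. The main isoform of Hipk3 is also 1 exon, exon 2 of 17 at chr2:104470749-104471847 on the minus strand, and holds the start codon after 2 untranslated bases. The main isoform of Ankib1 lies at chr5:3747021-3772787 on the minus strand, joins exons 2 to 5 of 20 and holds the start codon after 83 untranslated bases. The rings are 670, 820, 667, 1099 and 873 nt long in the order Usp3, Aff3, Cdyl, Hipk3 and Ankib1, against a median of 520 nt (quartiles 365 and 778) over 1657 abundant circRNA, those of at least 100 CPM over the circRNA reads in at least 3 libraries. Only the Ankib1 ring has a length that is a multiple of 3. In all 5, the intron before the ring ends in AG and the intron after it begins with GT, the usual splice site letters.

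The introns on both sides of the rings were long. The upstream intron measured 25880 bp in Usp3, 90142 bp in Aff3, 25733 bp in Cdyl, 22100 bp in Hipk3 and 29809 bp in Ankib1, and the median over the abundant circRNA was 11685 bp. Downstream, the intron measured 9671 bp in Usp3, 128362 bp in Aff3, 40087 bp in Cdyl, 24113 bp in Hipk3 and 12836 bp in Ankib1, against a median of 10331 bp. All of these but the downstream intron of Usp3 were longer than the median, and the downstream intron of Aff3 was longer than that of 99.1% of abundant circRNA. Inverted repeats in the 2 flanking introns are known to bring splice sites together. Within 1000 bp of the ring on either side, the longest stretch of 1 intron that was matched exactly by the reverse complement of the other was 10 nt in Usp3, Aff3 and Cdyl and 11 nt in Hipk3, where the median over 1655 abundant circRNA was 11 nt. In Ankib1 it was 37 nt, a length that 24 of the 1655 (1.45%) reached. The stretch ends 183 bases before the ring and its partner begins 699 bases after it. Both are shown because they are the only long pair found at these 5 rings in windows of up to 2000 bp.
Ankib1 upstream, chr5:3772971-3773007: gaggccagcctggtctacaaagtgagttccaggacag
Ankib1 downstream, chr5:3746285-3746321: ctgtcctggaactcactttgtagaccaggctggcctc
The letters are those of the B1 family of short interspersed repeats, which is common in mouse introns. With windows of 500 bp the Ankib1 pair fell outside and the longest match was 12 nt. With 2000 bp the longest matches were 12, 15, 10 and 14 nt in Usp3, Aff3, Cdyl and Hipk3, and the same 37 nt in Ankib1. At that window 55 of the 1655 abundant circRNA (3.32%) reached 37 nt, and the median was 12 nt. A match describes the sequence and is not evidence that the introns pair.

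One isoform took most of the back-splice reads of every host. The 5 hosts held 15697 back-splice reads at circRNA, of which 14156 (90.2%) were on the 5 main isoforms, and these 5 junctions were 2.95% of all circRNA reads. The main isoform of Usp3 had 4068 of 4844 reads (84.0%, 95% exact binomial interval 82.9% to 85.0%). The main isoform of Aff3 had 3450 of 3736 (92.3%, 91.4% to 93.2%), and that of Cdyl 3015 of 3211 (93.9%, 93.0% to 94.7%). Hipk3 stood highest, at 1876 of 1921 (97.7%, 96.9% to 98.3%), and Ankib1 at 1747 of 1985 (88.0%, 86.5% to 89.4%). Reads were counted without molecular identifiers, so these intervals cover counting error only. The lead of Hipk3 holds among circRNA only. Junctions naming Hipk3 but not typed as circRNA held a further 158 reads, against 45 on its minor isoforms. With junctions of any type counted, its mean share was 89.5% at 0-h and 90.9% at 4-h post-hCG. In the same order it was 90.6% and 90.5% in Cdyl and 90.9% and 89.2% in Aff3. The margin at the cut was narrow, since the main Ankib1 isoform, at rank 5, had 1747 reads and the Gigyf2 circRNA at rank 6 had 1746.

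For a sense of scale, 524 gene entries had at least 2 isoforms and 200 circRNA reads, and their leading isoform took a median of 53.5% of the reads (quartiles 37.0% and 76.2%). The leading isoform took more than 80% in 113 of them, the 5 hosts included. Dominance as such was not greatest in these hosts: 18 entries had a higher share than Hipk3, 43 than Cdyl, 50 than Aff3, 75 than Ankib1 and 95 than Usp3. The circRNA that followed by reads, at ranks 6 to 12, took 89.9% of the reads of their gene in Gigyf2, 79.3% in Asph, 98.2% in Nfix, 45.5% in Tenm4, 61.5% in Ezh2, 93.5% in Ube2k and 76.1% in Fam82a1.

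**Figure D1:**
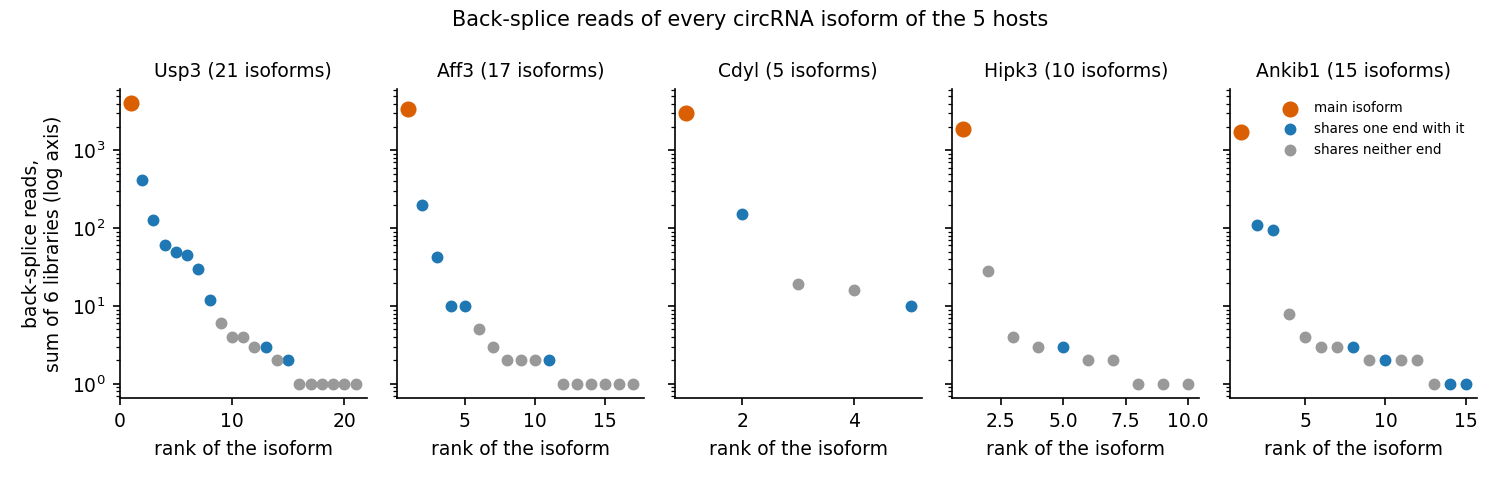
Back-splice reads summed over the 6 libraries (log axis) for each isoform of the 5 hosts, against its rank within the host, with the main isoform in orange and isoforms that share one end with it in blue. The main isoform lies 9.66 times above the second in Usp3 and 67.0 times above it in Hipk3, and the isoforms of 10 or more reads that share neither end are few.

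The second isoform trailed far behind and, except in Hipk3, reused an end of the main one. In Usp3 the second isoform had 421 reads, so that the main one had 9.66 times as many. It is the 2-exon ring of exons 2 and 3 (chr9:66562554-66566903), and of all second isoforms it was the nearest to its main isoform. The second isoform had 201 reads in Aff3 (17.2 times fewer than the main), 151 in Cdyl (19.97 times), 110 in Ankib1 (15.9 times) and 28 in Hipk3 (67.0 times). Their junctions are shown so that the reused side can be read off against the main isoforms above.
Usp3 isoform 2: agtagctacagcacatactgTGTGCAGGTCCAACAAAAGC
Aff3 isoform 2: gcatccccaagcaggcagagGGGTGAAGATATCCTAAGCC
Cdyl isoform 2: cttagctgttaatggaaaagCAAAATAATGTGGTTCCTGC
Hipk3 isoform 2: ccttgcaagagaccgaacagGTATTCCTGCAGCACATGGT
Ankib1 isoform 2: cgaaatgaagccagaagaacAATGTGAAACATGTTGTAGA
The second isoforms of Usp3 and Ankib1 kept the acceptor, in capitals, and took another donor, exon 3 and exon 10. Those of Aff3 (chr1:38534906-38539001) and Cdyl (chr13:35790101-35816575) kept the donor and took an acceptor further upstream, which in Cdyl is that of exon 4. The second Hipk3 isoform (chr2:104433168-104435057) is a separate ring of 5 exons near the other end of the gene.

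Of the 63 minor isoforms, 23 shared exactly one end with the main isoform of their host, and these held 1394 of the 1541 minor reads (90.5%). The other 40 shared neither end and held 147 reads. By host, the isoforms that share an end held 96.8% of the minor reads of Usp3, 93.0% of those of Aff3, 89.5% of those of Ankib1 and 82.1% of those of Cdyl. Hipk3 differed, since 1 minor isoform with 3 reads shared an end and the remaining 42 minor reads did not (6.67% shared). In Ankib1 the acceptor of exon 2 was used in 98.7% of all back-splice reads of the gene and the donor of exon 5 in 88.0%. In Usp3 the acceptor of exon 2 was used in 96.2% and the donor of exon 8 in 87.2%. Aff3 leaned the other way, with the donor of exon 5 in 97.7% of reads and the acceptor of exon 3 in 94.1%. Most minor isoforms were near the limit of detection: 18 of the 68 isoforms had a single read, 23 had at least 10, and 13 passed the abundance filter, of which 5 were of Usp3, 3 of Ankib1, 2 each of Aff3 and Cdyl and 1 of Hipk3.

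Usp3 had the most varied minor isoforms. Isoform 3, exons 4 to 8 (chr9:66540062-66547955), had 33, 23 and 9 reads at 0-h and 14, 27 and 21 at 4-h post-hCG. Isoform 4, exons 2 to 6 (chr9:66543946-66566903), had 8, 12 and 9 reads at 0-h and 11, 15 and 6 at 4-h post-hCG. Isoform 6, exons 2 to 11 (chr9:66526939-66566903), ranged from 0 to 14 reads in a library. In all 3 the groups overlapped. Aff3 had 43 reads on isoform 3 (chr1:38406496-38536946) and 10 each on isoforms 4 and 5, while Cdyl had 19 reads on isoform 3 (chr13:35856663-35863409), 16 on isoform 4 (chr13:35856663-35858248) and 10 on isoform 5 (chr13:35815909-35863409). In Ankib1, isoform 3 (exons 2 to 4, chr5:3755594-3772787) had 96 reads and isoform 4 had 8. In Hipk3, isoform 3 had 4 reads and isoform 4 had 3.

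The lead of the main isoform did not differ between the time points beyond the spread of the libraries. In Usp3 its share was 84.0%, 82.2% and 85.5% at 0-h and 87.3%, 81.0% and 82.8% at 4-h post-hCG. In Aff3 it was 92.3%, 91.4% and 96.6% at 0-h and 91.4%, 92.0% and 90.8% at 4-h post-hCG. The groups overlapped in both genes. Cdyl gave 92.3%, 94.4% and 94.3% and then 95.9%, 91.6% and 94.2%. Hipk3 gave 98.7%, 94.1% and 98.1% at 0-h and 99.4%, 97.2% and 98.0% at 4-h post-hCG. Ankib1, the most spread of the 5 at 0-h, gave 84.7%, 86.1% and 93.9% and then 90.8%, 87.0% and 85.8%. The mean share differed by -0.25 (Usp3), -1.99 (Aff3), 0.21 (Cdyl), 1.20 (Hipk3) and -0.34 (Ankib1) percentage points, 4-h post-hCG minus 0-h. The exact two-sided permutation test over the 6 libraries gave p = 1.0, 0.2, 1.0, 0.7 and 0.9 in that order, and the adjusted p over the 5 hosts was 1.0 for each. With 3 libraries against 3 the smallest p this test can give is 0.1.

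**Figure D2:**
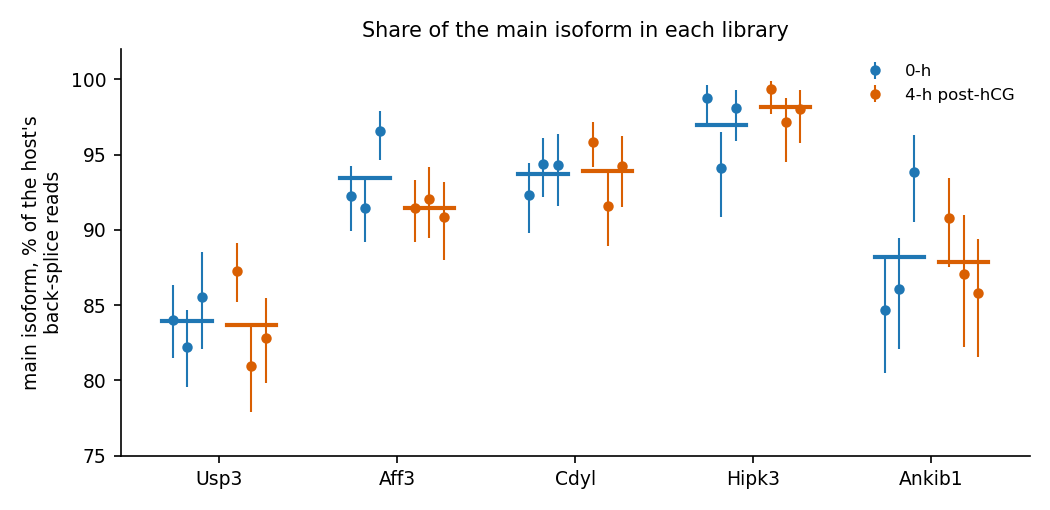
Share of the main isoform among the back-splice reads of its host in each library (points, with 95% exact binomial intervals that cover counting error only) and the mean of each group (lines), 0-h in blue and 4-h post-hCG in orange; the vertical axis begins at 75%. The groups overlap in all 5 hosts, from 81.0% to 87.3% in Usp3 and from 94.1% to 99.4% in Hipk3.

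None of the hosts changed its circular output between the time points by the thresholds of the study (adjusted p not above 0.1, with a change of 1.5-fold or more). The main Usp3 isoform had 758, 732 and 419 back-splice reads at 0-h and 993, 579 and 587 at 4-h post-hCG, and scaled to library size it stood at 4665, 4328 and 3444 against 6303, 4209 and 4948 normalized CPM. The groups overlapped. Its log2 change was 0.31 (standard error 0.133, edgeR adjusted p = 0.572, unadjusted p = 0.0208). The main Cdyl isoform had 507, 538 and 382 reads at 0-h and 716, 481 and 391 at 4-h post-hCG, or 3120, 3181 and 3140 against 4545, 3497 and 3296 normalized CPM. Its groups did not overlap in normalized CPM, and 4-h post-hCG replicate 1 stood well above the other libraries. The log2 change was 0.27 (standard error 0.141, edgeR adjusted p = 0.753). Without 4-h post-hCG replicate 1, the library that stands above, it was 0.11.

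The other 3 main isoforms had log2 changes close to 0. Aff3 had 598, 673 and 532 reads at 0-h and 683, 508 and 456 at 4-h post-hCG, a change of -0.02 (standard error 0.133). Hipk3 had 394, 288 and 310 reads and then 309, 276 and 299, a change of -0.04 (standard error 0.164). Ankib1 had 299, 309 and 276 reads and then 364, 215 and 284, a change of 0.08 (standard error 0.168). The edgeR adjusted p was 0.997 for each of the 3. In all, 13 host isoforms could be tested and none was called, where 20 of the 1658 abundant circRNA were (1.21%, and 113 at an unadjusted p under 0.05). The changes of the 13 ranged from -0.40 (Ankib1 isoform 2) to 0.40 (Aff3 isoform 2), with a median of 0.25 against 0.03 over all 1658. DESeq2 called 14 of the 1658 and none of the 13.

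The minor isoforms, which played no part in the choice of the hosts, gave the same count. Summed without the main isoform, the log2 change was 0.22 (standard error 0.200) in Usp3, 0.32 (0.290) in Aff3, 0.10 (0.325) in Cdyl and 0.06 (0.317) in Ankib1, and the edgeR adjusted p was 0.900 for Usp3 and Aff3 and 0.981 for Cdyl and Ankib1. None of the 4 was called, where 7 of 865 gene entries were (0.809%, and 57 at an unadjusted p under 0.05). DESeq2 also called 7. The minor reads of Hipk3, 45 in all, were too few to test. With all isoforms of a gene summed, the changes were 0.25, -0.04, 0.20, -0.11 and 0.03 in the order Usp3, Aff3, Cdyl, Hipk3 and Ankib1, and none was called (edgeR adjusted p from 0.558 to 0.996), where 20 of 1580 gene entries were (1.27%, and 123 at an unadjusted p under 0.05).

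**Figure D3:**
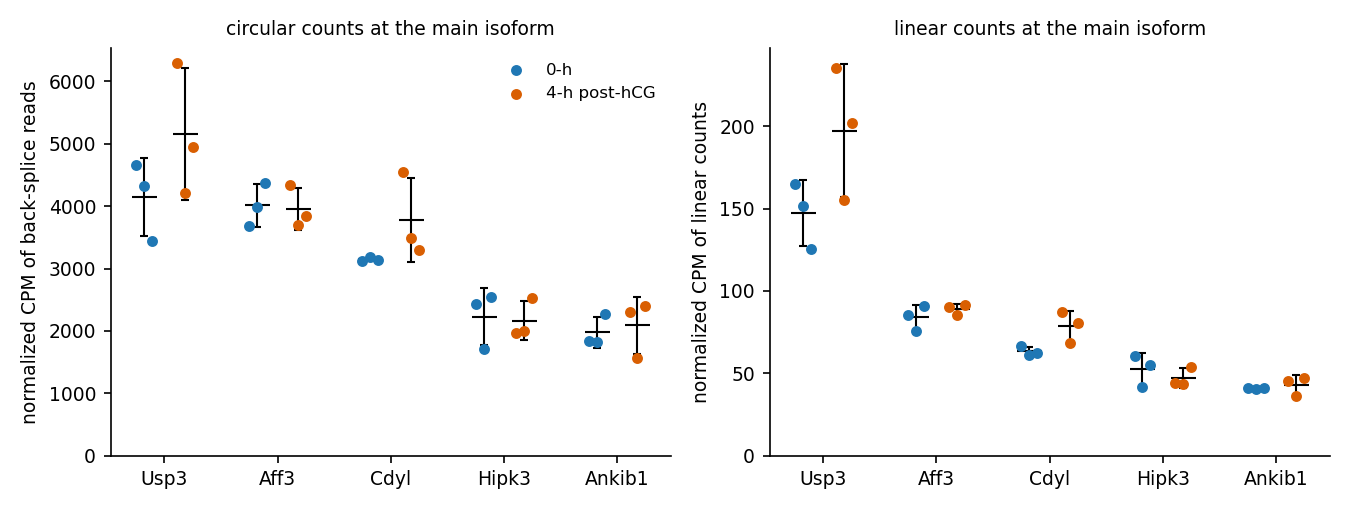
Normalized CPM of the back-splice reads (left) and of the linear counts (right) at the main isoform of each host, for each library (points) with the group mean ± SD (n = 3). The 2 panels have separate scales and library totals and cannot be compared in height. Cdyl is the host whose groups do not overlap in either panel, at 3120 to 3181 against 3296 to 4545 on the left. Neither change was called (edgeR adjusted p = 0.753 on the left). The left one was 0.11 in log2 without 4-h post-hCG replicate 1. The number of abundant circRNA whose groups fail to overlap was not counted.

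The deposited linear count at the main junctions was of the same order as the back-splice count in 4 hosts and higher in Usp3. The 2 counts are unlike measures. A back-splice count is of 1 junction, whereas a linear count, where it could be checked (below), added up from 1 part for each end. Which RNA was the more abundant can therefore not be read from them. In Hipk3 the back-splice and linear counts of the 3 libraries at 0-h were 394 and 377, 288 and 299, and 310 and 305. At 4-h post-hCG they were 309 and 309, 276 and 271, and 299 and 265. Back-splice reads per linear count were 1.01 ± 0.0415 at 0-h and 1.05 ± 0.0694 at 4-h post-hCG in Hipk3 (SD, n = 3 each), 1.1396 ± 0.0924 and 1.02 ± 0.0586 in Aff3, 1.18 ± 0.0704 and 1.097 ± 0.0949 in Cdyl and 1.15 ± 0.0774 and 1.11 ± 0.133 in Ankib1. In Usp3 the values were 0.671 ± 0.0695 and 0.598 ± 0.00555. Scaled together over the abundant circRNA, the log2 ratio of circular to linear counts at 0-h was 2.23 (Usp3), 3.00 (Aff3), 3.05 (Cdyl), 2.82 (Hipk3) and 3.02 (Ankib1), where the median was -0.05. These scaled ratios come from 1 set of TMM factors over the circular and linear columns and are not the plain ratio of the counts.

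Of the 8 minor isoforms that passed the abundance filter, 7 had scaled log2 ratios below 0, from -0.36 in Cdyl isoform 2 to -4.94 in Usp3 isoform 4. The exception was Aff3 isoform 2, at 0.98, with 201 reads of the ring against 641 linear counts. The sign on that scale places an isoform among the abundant circRNA and does not say which of its RNA had more counts. The ratio of circular to linear counts did not change by the test at any of the 13 isoforms, where 42 of 1658 circRNA were called (2.53%, and 201 at an unadjusted p under 0.05). The smallest adjusted p of the 13 was 0.717, at Ankib1 isoform 2 (log2 change -0.51, standard error 0.423). That background count moved with single libraries, to 75 without 4-h post-hCG replicate 2, 11 without 0-h replicate 1, 17 without 0-h replicate 2, 21 without 0-h replicate 3 and 24 without 4-h post-hCG replicate 3, and DESeq2 called 101.

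The linear count has a structure that bears on these ratios. In 18 sets of 4 junctions that pair 2 starts with 2 ends, 15 in Usp3, 2 in Aff3 and 1 in Ankib1, the counts of the 2 diagonals added up to the same total within 1 count in every library, so that in these sets the linear count of a junction adds up from 1 part for each of its ends. Cdyl and Hipk3 have no such set, and there this could not be checked. Where it holds, an isoform that shares one end with the main isoform gives the linear count of its other end against that of the main one. At all 9 such ends inside a main ring the count was higher than at the ring's own end, by 405 to 7138 over the 6 libraries. At 12 of the 14 ends outside it was lower, down to a difference of -2549, and at 2 Aff3 donors it was higher, by 459 at exon 9 (6 of 6 libraries) and by 42 at exon 7 (3 of 6 libraries). The 12 lower ends include 2 in Cdyl and 1 in Hipk3, where the adding up could not be checked. In Usp3 the donor of exon 6 stood 7138 above that of exon 8 and the acceptor of exon 3 stood 4332 above that of exon 2, while the donor of exon 11, past the ring, differed from it by -513. In Ankib1 the donors of exons 3 and 4 stood 1287 and 1051 above that of exon 5, and the donors of exons 6, 10, 11 and 17 differed from it by -350 to -183. In each of these Usp3 and Ankib1 comparisons all 6 libraries showed the same direction.

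**Figure D4:**
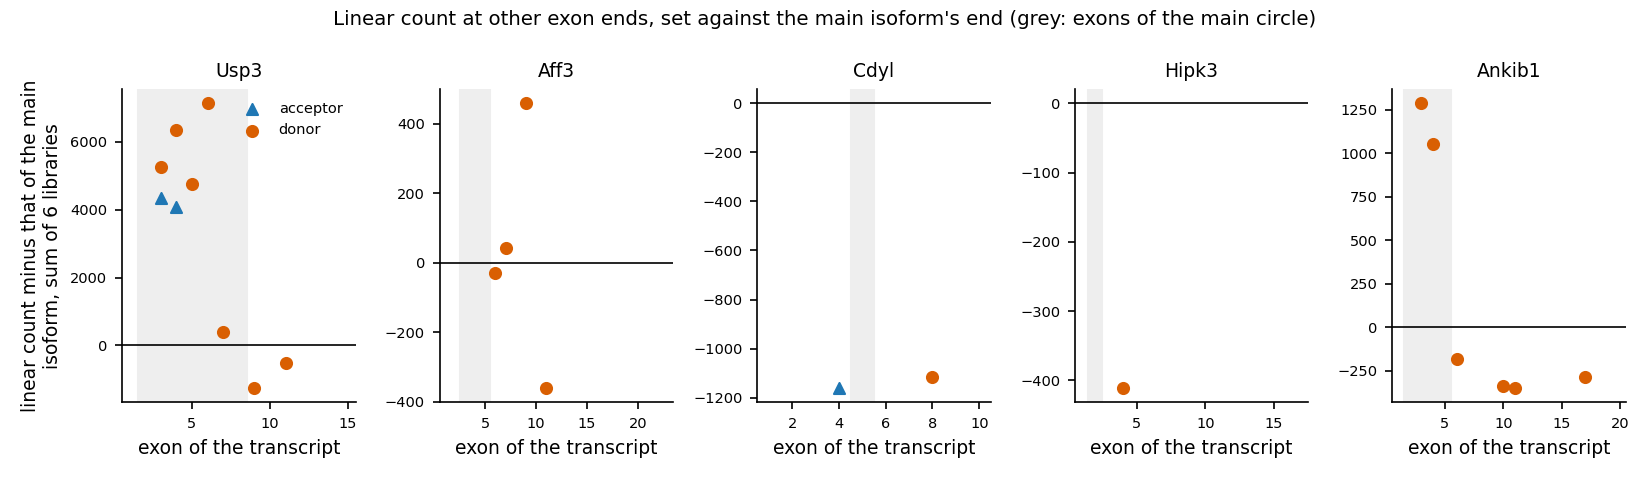
Linear count of an isoform minus that of the main isoform of its host, summed over the 6 libraries, for the isoforms that share one end with the main isoform, against the exon of the transcript that holds the other end (triangles, acceptors; circles, donors; each panel has its own vertical scale). Ends inside the main ring (grey) lie above 0, by 405 to 7138 in Usp3 and by 1051 and 1287 in Ankib1, and most ends outside lie below; the second isoform of Aff3, at -2549, has no exon number and is left out.

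The single-exon rings have no splice site within them and can be compared with outer ends only, and for them the differences are between the counts of 2 junctions and are differences between ends only if the counts add up as in the other hosts. With that limit, the acceptor of Cdyl exon 4 differed from that of exon 5 by -1161, the donor of exon 8 differed from that of exon 5 by -1116, and in Hipk3 the donor of exon 4 differed from that of exon 2 by -411. All 6 libraries showed each of the 3. The linear count at the main Cdyl isoform was 413, 442 and 347 at 0-h and 612, 425 and 395 at 4-h post-hCG. The linear total over the 6 libraries at the main isoform was 7.01 times the median of the junctions with both ends outside the ring in Cdyl, 4.42 times in Aff3, 3.93 times in Ankib1, 2.96 times in Usp3 and 2.34 times in Hipk3. The sources used here do not say how linear RNA was counted. Whether reads of the rings themselves entered the linear count was not tested, and the ratios above are ratios of the deposited counts.

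Between the time points, the only host junctions called on linear counts were in Cdyl and Usp3, away from the main ring. Over all 40144 junctions that passed a filter on linear counts, 9872 were called (24.6%), 4958 of them higher at 4-h post-hCG (12.4%). Of the 68 host junctions 4 were called, all higher, which is a smaller share than that over all junctions. Of these 4, 2 are in Cdyl, exons 6 to 8 and exons 6 to 7 (isoforms 3 and 4), and 2 are in Usp3, exons 9 to 13 and exons 9 to 11 (isoforms 9 and 10). All 4 lie wholly downstream of the main ring. The members of each pair share an end, so that they are not independent. Their place is a description only, since 27 of the 68 host junctions had both ends outside a main ring. A count of 4 of 27 is near the 12.4% called higher over all junctions. These 4 junctions were picked out after their values were seen. The count was 9 without 4-h post-hCG replicate 2, when Usp3 isoforms 1, 6 and 15, Cdyl isoform 2 and Ankib1 isoform 4 were also called, and 6 without 0-h replicate 3. With any other library left out it was 4 or 5, and both Cdyl junctions and Usp3 isoform 9 were called with each library left out in turn.

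At Cdyl isoform 3 the linear count was 46, 30 and 32 at 0-h and 131, 91 and 93 at 4-h post-hCG, a log2 change of 1.63 (standard error 0.237, edgeR adjusted p = 2.02e-06). At Cdyl isoform 4 it was 35, 23 and 23 and then 111, 62 and 75, a log2 change of 1.70 (standard error 0.267, edgeR adjusted p = 7.5e-06). The groups did not overlap at either. In contrast, the main Cdyl ring had linear counts 1.27 times as high (log2 change 0.34 in the same fit), and its change was not called. As a share of the linear count at the main isoform, the median of the 2 downstream junctions was 9.81%, 6.00% and 7.93% in the 0-h libraries and 19.8%, 18% and 21.3% in those of 4-h post-hCG. The log2 of that share rose by 1.34, and the exact two-sided permutation test gave p = 0.1, the smallest that 3 against 3 allows (adjusted p over the 5 hosts = 0.25). The 2 junctions are those just called, so this test reuses the values that picked them out and is no separate support.

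At Usp3 isoform 9 the linear count was 203, 287 and 203 at 0-h and 476, 316 and 333 at 4-h post-hCG, a log2 change of 0.81 (standard error 0.165, edgeR adjusted p = 0.000322). At Usp3 isoform 10 it was 336, 377 and 287 and then 680, 410 and 437, a log2 change of 0.71 (standard error 0.165, edgeR adjusted p = 0.0014). Both groups of counts were apart. The second of these calls was lost without 4-h post-hCG replicate 1, where the log2 change was 0.57 and under the fold threshold. Inside the main Usp3 ring and at its ends the changes were smaller, 0.45 at the main isoform and 0.32 to 0.41 at the 10 junctions at or inside it, and none was called. The median of the 2 downstream junctions ranged from 26.3% to 35.2% of the linear count at the main isoform at 0-h and reached 35.0% to 38.8% after hCG, so that the groups overlapped (log2 rise 0.29, exact permutation p = 0.2, adjusted p over the 5 hosts = 0.333). This comparison too reuses the counts of the 2 called junctions.

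The other 3 hosts had no called junction with all 6 libraries. In Ankib1, 4 junctions outside the ring had log2 changes of 0.20 to 0.43, against 0.10 at the main isoform. As a share of the main isoform their median ranged from 19.8% to 24.1% at 0-h and reached 26.3% to 28.5% after hCG. The groups did not overlap, and the exact permutation test gave its smallest p, 0.1 (adjusted p over the 5 hosts = 0.25). The 11 outside junctions of Aff3 changed by 0.08 to 0.56 and the 8 of Hipk3 by -0.11 to 0.39. The exact permutation p for the share of the main isoform was 0.6 in each, with groups that overlapped. Among the abundant circRNA alone, where 341 of 1658 linear counts were called (20.6%), none of the 13 host isoforms was, although Cdyl isoform 2 (log2 change 0.46, edgeR adjusted p = 0.0183), Usp3 isoform 6 (0.45, edgeR adjusted p = 0.0422) and Usp3 isoform 1 (0.42, edgeR adjusted p = 0.0597) passed the threshold on p and fell short of a fold of 1.5.

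**Figure D5:**
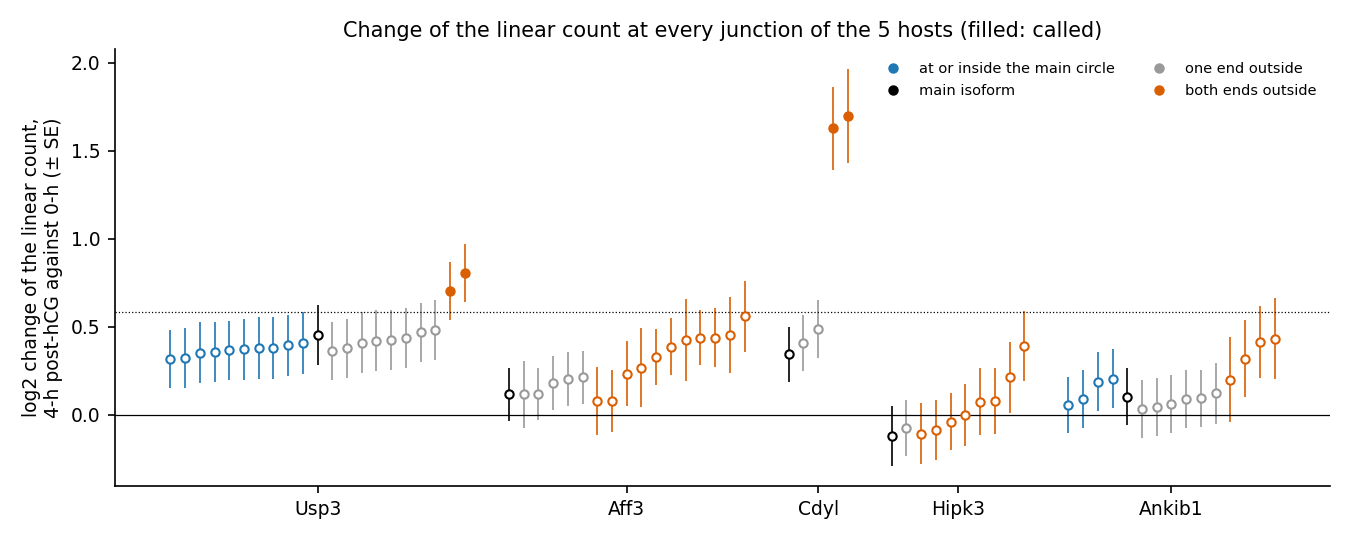
Log2 change of the linear count, 4-h post-hCG against 0-h, at each of the 68 host junctions (± standard error), coloured by where the ends of the junction lie relative to the main ring and filled where called; the dotted line is a fold change of 1.5. The 4 called junctions are among the 27 with both ends outside the ring, at 1.63 and 1.70 in Cdyl and 0.81 and 0.71 in Usp3.

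To place the hosts among their relatives, the linear count was compared once per gene, at its junction of most linear counts. Of 6949 genes, 1793 were called (25.8%, of which 903 higher and 890 lower, median log2 change -0.01). None of the 5 hosts was, with log2 changes of 0.33 (Usp3), 0.22 (Aff3), 0.35 (Cdyl), -0.11 (Hipk3) and 0.22 (Ankib1). That junction was the main isoform in Cdyl and Hipk3, lay inside the main ring in Usp3 and Ankib1, and shared an end with it in Aff3. The called rises at junctions outside the rings of Cdyl and Usp3 therefore do not enter these values. Of the ubiquitin-specific proteases listed with Usp3, 26 of 30 were tested, 3 rose and 2 fell, with a median of 0.19. Usp53 rose from 5.03 ± 0.666 to 30.4 ± 9.99 normalized CPM (log2 change 2.62, edgeR adjusted p = 3.28e-08), Usp47 rose by 1.43 and Usp34 by 0.63, and Usp11 fell by 0.96 and Usp48 fell by 0.78. With a library left out, 4 (without 0-h replicate 1) to 7 (without 0-h replicate 2) of the list were called. Usp9x and Usp7, the members of highest linear count after Usp3, had log2 changes of 0.47 and 0.38, under the fold threshold.

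Of the AF4 family and the super elongation complex, 12 of 15 genes were tested, 3 rose and none fell, with a median of 0.23. Over all genes in the same fit 25.8% were called (1793 of 6949), the share to set beside both lists of this paragraph. Ell2, an elongation factor of the complex, rose from 2.94 ± 0.235 to 13.1 ± 0.927 normalized CPM (log2 change 2.19, edgeR adjusted p = 9.6e-07). Eaf1, a partner of the ELL proteins, rose by 1.53, and Aff4, the scaffold of the complex and a relative of Aff3, rose by 0.63. Mllt1, a YEATS-domain subunit, had a log2 change of 0.12 and was not called. The number called was 2 without 0-h replicate 1 and also without 4-h post-hCG replicate 3. Of Cdyl and its partners in repressive chromatin, 15 of 16 were tested, and only Rcor1, the corepressor also called CoREST, was called, at 0.68 higher (edgeR adjusted p = 0.00334), with a list median of 0.00. Without 0-h replicate 1 no member was called higher and 1 was called lower. Ehmt2 and Ehmt1, the histone H3 lysine 9 methyltransferases that bind Cdyl, had log2 changes of -0.27 and -0.02.

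Of the HIPK, DYRK and CLK kinases, 10 of 14 were tested, 3 rose and 1 fell, with a median of 0.27. The share called over all genes in the same fit, 25.8% (1793 of 6949), stands beside both lists of this paragraph. Prpf4b rose by 0.70, Clk3 by 0.66 and Dyrk1a by 0.59, and Dyrk1b fell by 0.78 (edgeR adjusted p from 0.00552 to 0.0272). The 3 higher calls rested on 0-h replicate 1, since without it no member was called higher and 1 was called lower, and with any other library left out 3 to 5 were called. The near relatives of Hipk3 were not called, Hipk1 at 0.51 (edgeR adjusted p = 0.0132, under the fold threshold) and Hipk2 at 0.23. Of the RBR ligases, the class of Ankib1, 12 of 14 were tested, 2 rose and 3 fell, with a median of 0.10. Rnf217 rose from 18.4 ± 4.44 to 42.5 ± 3.79 normalized CPM (log2 change 1.25, edgeR adjusted p = 7.79e-06), Rnf19a rose by 0.71, and Rnf144b, Cul9 and Rbck1 fell by 1.72, 1.01 and 0.87. Arih2, a ligase that works with cullin complexes, had a log2 change of 0.16 and was not called.

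Of the factors known to act on back splicing or on the turnover of circRNA, 18 of 20 were tested and 3 were called, all higher, with a median of 0.29. Over all genes in that fit, 1793 of 6949 were called (25.8%). Adarb1, an adenosine deaminase that edits double-stranded RNA, rose from 8.83 ± 2.09 to 55.0 ± 0.938 normalized CPM (log2 change 2.69, edgeR adjusted p = 1.07e-10), and Mbnl1 and Khdrbs1, RNA-binding splicing regulators, rose by 0.74 and 0.67 (edgeR adjusted p = 0.00245 and 0.00274). With a library left out, 2 (without 0-h replicate 1) to 5 (without 0-h replicate 3) were called, all higher. Hnrnpl and G3bp1, the 2 factors of highest linear count among those not called, had log2 changes of -0.03 and -0.25. Whether these factors act on the host rings was not tested.

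For each main isoform, the abundant circRNA with the nearest level over the 6 libraries among genes other than the 5 hosts was found by the root mean square difference of log2 normalized CPM. It was the Gigyf2 circRNA (chr1:87364104-87380008), which stood at 1988 ± 93.5 at 0-h and 2027 ± 343 normalized CPM at 4-h post-hCG (SD, n = 3 each), for Usp3 (1.23), Aff3 (1.01) and Cdyl (0.80). For Hipk3 (0.28) and Ankib1 (0.23) it was the Asph circRNA (chr4:9635901-9639347), which stood at 1778 ± 46.2 and 2035 ± 114. The hosts were chosen for their reads, so that these distances follow in part from the choice. By mean normalized CPM at 0-h the order was Usp3 (4146 ± 631), Aff3 (4011 ± 347), Cdyl (3147 ± 30.9), Hipk3 (2225 ± 457) and Ankib1 (1979 ± 251). At 0-h, Usp3 and Aff3 overlapped over the 3 libraries, as did Hipk3 and Ankib1, and Cdyl lay apart from both neighbours, whereas at 4-h post-hCG Cdyl (3296 to 4545) overlapped Aff3 (3693 to 4335).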

How the data were processed

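Total stranded RNA was sequenced as paired ends. The authors used FastQC and cutadapt on the reads, TopHat and TopHat-Fusion for mapping to GRCm38 and CIRCexplorer for back splices, by the methods of the paper. The deposited table holds raw counts of back-splice reads and of linear RNA per junction and library, and the sources used here do not say how linear RNA was counted. A deposited table of the authors' fold changes and p-values was not used. The 5 hosts, the gene lists and the tests were chosen with earlier results of these data known.

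The main test was the quasi-likelihood test of edgeR 4.0.16 (TMM factors, two-sided, Benjamini-Hochberg adjustment over all features fitted) on the 6 libraries. A call needed an adjusted p not above 0.1 with a change of 1.5-fold or more. Library sizes were the back-splice reads on junctions naming a gene, or the summed linear counts. Junctions naming no gene, 15.6% to 18.9% of back-splice reads, were left out. For the ratio of circular to linear counts, the interaction term over 12 columns was tested. The circular and linear columns of a library were treated as separate samples there. With a term for each library instead, 38 circRNA were called against 42. Linear counts over all junctions, and once per gene, were fitted after seeing the data and passed filterByExpr. Shares were compared with exact permutation tests. Normalized CPM are counts scaled to 1000000 of the TMM-adjusted library size. Except in the ratio test, p-values measure the spread between 3 mice per group. The main and next 3 isoforms of each host were named, with those abundant or called, and from each list, markers of granulosa cells included, the called members and up to 2 others of highest linear count. DESeq2 1.42.0, RLE factors, other filters, the replicate block and leaving out each library were alternatives. The scripts were tested on simulated counts. Exons are from GENCODE M21 and sequences from RefSeq GRCm38.p6.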

Additional observations from a re-analysis of the deposited data

How the results depend on the processing

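The thresholds of the count tests set how many features were called, and no host isoform, host sum or minor sum was called on circular counts or on the ratio under any setting run. With no filter 7 circRNA were called on circular counts. On linear counts at the circRNA junctions, 681 were called at 50 CPM, 152 at 200 CPM and 10030 with no filter, since more or fewer junctions were tested. DESeq2 called 101 circRNA on the change of the ratio, against 42 with edgeR, and the cause was not tested. The share of the main isoform moved by -0.12 percentage points in Cdyl with junctions of any type naming the host and by -0.30 against the next isoform only, and in Ankib1 by 1.05 with isoforms of at least 10 reads and by 2.03 against the next isoform only, each opposite in sign to the main value and none past the test. Signs of changes near 0 also turned in the ratio: Hipk3 isoform 1 (-0.0029) and Usp3 isoform 2 (-0.055) with no filter, and Ankib1 isoform 1 with RLE factors (0.0063), at 200 CPM (0.0016), with circular and linear columns scaled separately (0.011) and with DESeq2 (0.0064).

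With each library left out in turn, 10 to 19 circRNA were called on circular counts, 11 to 75 on the ratio, 11 to 19 gene entries on summed circular counts and 2 to 9 on minor sums. The following log2 changes, none of them called, turned sign in the same leave-one-out fits, given as lowest to highest. On circular counts these were Usp3 isoform 3 (-0.16 to 0.51), Usp3 isoform 4 (-0.082 to 0.43), Usp3 isoform 6 (-0.57 to 0.78), Aff3 isoform 1 (-0.089 to 0.036), Cdyl isoform 2 (-0.036 to 0.62), Hipk3 isoform 1 (-0.20 to 0.056), Ankib1 isoform 1 (-0.058 to 0.25) and Ankib1 isoform 3 (-0.30 to 0.77). On linear counts they were Aff3 isoform 2 (-0.0065 to 0.25), Ankib1 isoform 1 (-0.0025 to 0.18), Ankib1 isoform 2 (-0.048 to 0.15) and Ankib1 isoform 3 (-0.056 to 0.13). On the ratio they were Usp3 isoform 2 (-0.071 to 0.20), Usp3 isoform 3 (-0.66 to 0.16), Usp3 isoform 4 (-0.48 to 0.19), Usp3 isoform 6 (-0.99 to 0.24), Aff3 isoform 2 (-0.13 to 0.73), Cdyl isoform 1 (-0.15 to 0.039), Cdyl isoform 2 (-0.63 to 0.13), Ankib1 isoform 1 (-0.059 to 0.10) and Ankib1 isoform 3 (-0.31 to 0.63). Sums per gene ranged as Aff3 (-0.097 to 0.016) and Ankib1 (-0.096 to 0.21), and minor sums as Cdyl (-0.17 to 0.27) and Ankib1 (-0.24 to 0.27). The share of the main isoform ranged, in percentage points, as Usp3 (-2.05 to 1.09), Cdyl (-0.77 to 1.35), Hipk3 (-0.23 to 2.08) and Ankib1 (-2.10 to 2.49), and the log2 change of linear counts away from the ring over those at its ends as Aff3 (-0.012 to 0.22) and Hipk3 (-0.033 to 0.36). Usp3 isoform 6 was called on linear counts without 4-h post-hCG replicate 2 (0.60).

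Same-numbered libraries of the 2 groups did not deviate together (correlations of -0.025 to 0.031 on circular counts and -0.115 to 0.034 on linear counts). Differently numbered libraries ranged from -0.144 to 0.188 on linear counts. With 3 libraries per group, this check cannot tell whether the numbers pair the mice. With the replicate block, 18 circRNA were called on circular counts, 341 on linear counts and 43 on the ratio, 23 gene entries on summed circular counts and 10 on minor sums. Depth limits the minor isoforms most, as 18 of the 68 had 1 read.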
